A study of Mus musculus with 11 samples.

Results

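Entpd1, Nt5e, P2rx7, Adora2a and Ada are 5 mouse genes that handle purine signals at the T cell surface. They were chosen by name, with earlier results of these data known, and every probe set listed under 1 of these symbols was taken. That gave 9 of the 45037 probe sets tested, for 4 of the 5 genes: 2 for Entpd1, 3 for Nt5e, 3 for P2rx7 and 1 for Ada. Adora2a had no probe set under its symbol or gene identifier in the annotation used here and was not analysed here.

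ATP released by stressed or dying cells is a danger signal, and P2RX7 is the ion channel through which high extracellular ATP acts on T cells and can kill them. CD39, the product of Entpd1, removes phosphates from ATP and ADP to give AMP, and CD73, the product of Nt5e, turns AMP into adenosine. Adenosine dampens T cells through the A2A receptor, encoded by Adora2a, and adenosine deaminase, encoded by Ada, converts adenosine to inosine. In the mouse, CD39 and CD73 together on regulatory T cells are a known source of extracellular adenosine.

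The study hybridised 11 arrays with RNA of sorted T cells, taken from male NOD mice at 16 weeks of age. NOD mice develop autoimmune diabetes, and the males develop lacrimal gland inflammation used as a model of Sjögren's disease. LG_eTreg (3 arrays, effector regulatory T cells) and LG_eTconv (3 arrays, effector conventional T cells) were sorted from lacrimal glands as live CD4+ TCRβ+ PD1high ICOShigh cells. LG_naive (3 arrays) held live gland CD4+ TCRβ+ cells negative for PD1 and ICOS, and Spl_CD8 and Spl_CD4 (1 array each) held total CD8+ and total CD4+ spleen T cells of those mice. The labels print 1 and the same gate, CD73low CD200low, for both effector subsets, so they do not say how the effector subsets were told apart, and CD73 is itself the product of Nt5e. Values of Nt5e between the gland subsets are therefore given as a description and are not a finding. The labels do not say whether the 3 arrays of a group came from separate mice or pools, so a p-value here speaks only for these arrays, whose spread may be technical. Each value stands for a sorted population, in which fewer cells of a type and less RNA per cell cannot be told apart.

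The values are log2 signals, and an array's background limit is the highest value among its nonspecific control probe sets, 0.945 to 1.70 over the 11 arrays. A signal can be compared between arrays for 1 probe set, but not between probe sets. Differences were tested with limma over all 45037 probe sets, and those with a Benjamini-Hochberg adjusted p under 0.05 were called. Correlations between arrays were 0.977 to 0.989 within the gland groups and 0.946 to 0.976 between them. The 18S ribosomal control was higher on LG_eTreg 3 (6.69) and LG_naive 1 (6.63) than on the others (4.34 to 5.68), and the 3' actin control exceeded the 5' control by 3.35 on LG_eTconv 1 and by 1.53 to 2.86 on the others. Foxp3, which defines regulatory T cells, averaged 8.18 in LG_eTreg, 4.24 in LG_eTconv and 3.95 in LG_naive, and was 2.39 in Spl_CD8 and 5.77 in Spl_CD4. The regulatory marker Il2ra averaged 7.15, 5.12 and 4.58 in the same gland groups, and Ikzf2 9.28, 8.26 and 5.56. Ikzf2 was thus also higher in LG_eTconv than in LG_naive (2.70, limma adjusted p = 0.000747). It was not called between the effector subsets (1.02, limma adjusted p = 0.133). The 6 measured T cell markers were above the limit on all 11 arrays, and Cd4 averaged 8.43 to 8.97 in the gland groups against 2.47 in Spl_CD8. Cd8a averaged 5.17 in LG_eTreg, 6.48 in LG_eTconv and 4.92 in LG_naive, and was 9.35 in Spl_CD8 and 4.45 in Spl_CD4, while Cd8b1 averaged 1.08, 1.53 and 1.69 in the same gland groups against 6.43 in Spl_CD8. Cd8a was higher in LG_eTconv than in LG_naive (1.56, limma adjusted p = 0.00277) and lower in LG_eTreg than in LG_eTconv (−1.31, limma adjusted p = 0.0149). Averaged over each list, myeloid and epithelial markers were higher on LG_naive arrays than on the other gland arrays. The mean over 10 monocyte and macrophage markers was 2.31 to 2.53 on LG_eTreg arrays, 1.96 to 2.22 on LG_eTconv arrays and 3.61 to 3.94 on LG_naive arrays. Over 7 dendritic cell markers it was 2.77 to 3.13, 2.39 to 2.69 and 4.32 to 4.64 in the same order, and over 8 lacrimal epithelium markers 3.19 to 3.43, 2.36 to 2.66 and 4.0 to 4.93. Called lower in LG_eTreg than in LG_naive were 6 of 10 monocyte and macrophage, 5 of 7 dendritic cell and 2 of 8 epithelial markers, and in LG_eTconv 6, 5 and 4 in the same order. The dendritic cell marker Zbtb46 went the other way in LG_eTreg and was called higher than in LG_naive (1.27, limma adjusted p = 0.0492). On all LG_naive arrays 7 of the 10 monocyte and macrophage markers lay above the limit, while Itgam and Csf1r lay at or below it. Markers also differed between the effector subsets: Epcam was higher in LG_eTreg than in LG_eTconv by 3.06 (limma adjusted p = 0.00144), Irf8 by 1.71 (0.000213), Cd14 by 1.66 (0.0105) and Krt18 by 1.42 (0.0484). Lower in LG_eTreg were the B cell marker Cd22 by 1.57 (limma adjusted p = 0.0143), the endothelial marker Pecam1 by 1.63 (0.0410) and Tcf4 by 0.91 (0.0378). Tcf4 and Irf8 are on the same dendritic cell list and went opposite ways. The part of other cells in the differences given here, between the effector subsets and against LG_naive, was not tested. Groups of 3 arrays that do not overlap are common: 18.9% of all probe sets had none between LG_eTreg and LG_eTconv, 23.3% between LG_eTreg and LG_naive and 26.4% between LG_eTconv and LG_naive.

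Sequence around the annotated start is shown for the 3 genes that had a probe set called between the effector subsets. From which start the RNA read by a probe set came was not analysed here. The windows, from RefSeq on GRCm38.p6 (C57BL/6J, not NOD), hold 250 bases before and 50 after the start and are written along the gene's strand. Capitals mark every match, on either strand, to 1 of 5 short motifs: the cyclic AMP response element half-site TGACG, the AP-1 site TGANTCA, the xenobiotic response element core GCGTG, the GC box GGGCGG and the CCAAT box CCAAT. They were picked because Entpd1 and Nt5e are known to respond to cyclic AMP and to factors that bind such elements.
Entpd1, upstream start, chr19:40612116-40612415, plus strand: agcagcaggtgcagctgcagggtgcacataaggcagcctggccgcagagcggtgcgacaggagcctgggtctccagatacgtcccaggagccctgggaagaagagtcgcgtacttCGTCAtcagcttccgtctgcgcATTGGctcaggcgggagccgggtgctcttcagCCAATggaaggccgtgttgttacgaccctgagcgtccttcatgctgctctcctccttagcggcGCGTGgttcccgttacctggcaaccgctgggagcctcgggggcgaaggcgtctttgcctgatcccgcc
Entpd1, downstream start, chr19:40659520-40659819, plus strand: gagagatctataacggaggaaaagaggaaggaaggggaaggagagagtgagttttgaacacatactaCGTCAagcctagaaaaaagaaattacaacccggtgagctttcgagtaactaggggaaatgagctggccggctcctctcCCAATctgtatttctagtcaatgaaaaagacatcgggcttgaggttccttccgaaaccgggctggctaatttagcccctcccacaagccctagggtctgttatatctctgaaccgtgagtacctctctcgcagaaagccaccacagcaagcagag
Nt5e, chr9:88327359-88327658, plus strand: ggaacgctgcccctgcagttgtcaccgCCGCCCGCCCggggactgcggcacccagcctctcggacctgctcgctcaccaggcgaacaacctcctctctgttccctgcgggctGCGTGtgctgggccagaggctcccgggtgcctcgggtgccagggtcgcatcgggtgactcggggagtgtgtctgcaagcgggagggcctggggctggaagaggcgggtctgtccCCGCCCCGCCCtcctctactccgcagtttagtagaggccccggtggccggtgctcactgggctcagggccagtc
Ada, chr2:163750190-163750489, minus strand: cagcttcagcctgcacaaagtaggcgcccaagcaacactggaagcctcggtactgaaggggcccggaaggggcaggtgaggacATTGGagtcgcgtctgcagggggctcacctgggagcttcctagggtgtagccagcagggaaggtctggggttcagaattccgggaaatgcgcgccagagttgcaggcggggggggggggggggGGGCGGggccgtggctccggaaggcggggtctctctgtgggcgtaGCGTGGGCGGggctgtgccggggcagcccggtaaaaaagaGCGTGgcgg

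The upstream Entpd1 window held 1 TGACG, 1 GCGTG and 2 CCAAT at 64.0% G and C, and the downstream one 1 TGACG and 1 CCAAT at 48.7%. The Nt5e window held 4 overlapping GGGCGG and 1 GCGTG at 71.0%. The Ada window held 2 GGGCGG, 2 GCGTG, of which 1 overlaps a GGGCGG, and 1 CCAAT at 68.0%. Both Entpd1 windows shared the TGACG half-site, which neither the Nt5e nor the Ada window held. Such matches are common: of 32851 windows of this length, 20.8% held TGACG, 7.81% TGANTCA, 32.4% GCGTG, 35.7% GGGCGG and 37.4% CCAAT, and the median G and C content was 52.7%. A match is a description of letters, and binding was not measured here.

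Entpd1 spans chr19:40612366-40741602 and encodes CD39, the first enzyme of the path from ATP to adenosine. Its brighter probe set, 1450939_PM_at, read 5.17, 5.53 and 5.05 on the LG_eTreg arrays, 4.10, 4.29 and 4.36 on the LG_eTconv arrays and 3.03, 2.95 and 2.49 on the LG_naive arrays, with 2.34 in Spl_CD8 and 2.46 in Spl_CD4. The gland groups lay in 3 separate bands, with LG_eTreg on top, and both spleen arrays lay below every gland array. The group means were 5.25 ± 0.25 in LG_eTreg, 4.25 ± 0.13 in LG_eTconv and 2.82 ± 0.29 in LG_naive (SD, n = 3 each).

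By this probe set, Entpd1 was higher in both effector subsets than in LG_naive. In LG_eTreg it was higher by 2.43 on the log2 scale (SE 0.18, 5.37-fold, limma adjusted p = 0.000134). In LG_eTconv it was higher by 1.43 (SE 0.18, 2.69-fold, limma adjusted p = 0.00178). Between the effector subsets it was higher in LG_eTreg by 1.0 (SE 0.18, 95% interval 0.58 to 1.42, 2.0-fold, limma adjusted p = 0.0233). That last call ended when 1 array was left out, with limma adjusted p = 0.0582 without LG_eTreg 1, 0.0722 without LG_eTreg 2, 0.0841 without LG_eTconv 1, 0.0757 without LG_eTconv 2 and 0.0627 without LG_eTconv 3, while the difference itself was 0.86 to 1.10 over all such omissions.

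The second Entpd1 probe set, 1423326_PM_at, was designed from the same expressed sequence tag and was dimmer. It read 2.58, 1.95 and 2.44 on the LG_eTreg arrays, 0.71, 1.26 and 1.13 on the LG_eTconv arrays and −0.14, 0.55 and 0.56 on the LG_naive arrays. It was above the limit on all LG_eTreg arrays, on 1 of 3 LG_eTconv arrays and on no LG_naive or spleen array (0.22 in Spl_CD8 and 0.64 in Spl_CD4). LG_eTreg thus stood above all other groups, which have no order among themselves. LG_eTconv minus LG_naive was 0.71 (limma adjusted p = 0.148), which is not a call. LG_eTreg exceeded LG_naive by at least 1.84-fold against the limits of the LG_naive arrays (limma adjusted p = 0.00200 for the signals as read). With every value below the highest limit of all arrays set to that limit, it did so by 1.54-fold (limma adjusted p = 0.0355). LG_eTreg exceeded LG_eTconv by 1.29 (SE 0.25, limma adjusted p = 0.0316), and with the highest limit as floor by 0.63 (limma adjusted p = 0.0596), which is not a call. The call also ended without LG_eTreg 1 (0.0954), LG_eTreg 3 (0.0955), LG_eTconv 1 (0.104), LG_eTconv 2 (0.0661), LG_eTconv 3 (0.0865) or LG_naive 3 (0.0505), each a limma adjusted p.

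Nt5e spans chr9:88327609-88372089 and encodes CD73, the enzyme that makes adenosine. Its 3 probe sets did not give 1 picture. The brightest, 1428547_PM_at, designed from an expressed sequence tag, read 7.63, 8.02 and 7.95 on the LG_eTreg arrays, 8.68, 8.84 and 8.87 on the LG_eTconv arrays and 3.93, 4.71 and 4.70 on the LG_naive arrays. Spl_CD8 read 4.94 and Spl_CD4 6.96, so total spleen CD4 T cells lay between the gland cells with and without PD1 and ICOS. This order is the reverse of Entpd1 between the effector subsets: here every LG_eTconv array was above every LG_eTreg array.

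Against LG_naive, this Nt5e probe set was higher by 3.42 in LG_eTreg (10.7-fold, limma adjusted p = 6.54e-05) and by 4.35 in LG_eTconv (SE 0.22, 20.4-fold, limma adjusted p = 1.52e-05). Over all probe sets, 145 rose further in LG_eTreg and 86 rose further in LG_eTconv. LG_eTreg minus LG_eTconv was −0.93 (95% interval −1.43 to −0.43, limma adjusted p = 0.0683), which misses the threshold. The same difference passed it without LG_naive 1 (limma adjusted p = 0.0108). By this probe set both effector subsets carried more Nt5e RNA than LG_naive. The labels print CD73low for both, and whether that print is right for each subset cannot be told from them. RNA is not surface protein, so no mismatch of RNA and protein is read from this.

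The second Nt5e probe set, 1422974_PM_at, designed from a RefSeq transcript, read 2.03, 2.51 and 2.51 on the LG_eTreg arrays, 3.79, 3.55 and 3.31 on the LG_eTconv arrays and 0.55, 0.49 and 0.55 on the LG_naive arrays. Every LG_naive array and both spleen arrays (0.65 in Spl_CD8, 0.73 in Spl_CD4) were below the limit, and the effector subsets did not overlap. LG_eTreg was at least 1.88-fold above LG_naive and LG_eTconv at least 4.31-fold, each against the limits of the LG_naive arrays. For the signals as read, the limma adjusted p was 0.000370 and 2.33e-05 in the same order. With the highest limit as floor the rises were 1.57-fold (limma adjusted p = 0.0410) and 3.61-fold (limma adjusted p = 0.000254). LG_eTreg was lower than LG_eTconv by 1.20 on the log2 scale (SE 0.17, 2.30-fold, limma adjusted p = 0.00704). Because CD73 was in the sort gate, this difference is a description and not a finding.

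The third Nt5e probe set, 1459023_PM_at, also from an expressed sequence tag, did not follow the other two. It averaged 2.04 ± 0.21 in LG_eTreg, 1.98 ± 0.28 in LG_eTconv and 2.10 ± 0.18 in LG_naive (SD, n = 3 each), with 2.14 in Spl_CD8 and 2.17 in Spl_CD4. All 11 arrays lay between 1.76 and 2.30, above their limits, which reach 1.70, and the gland groups overlapped. LG_eTreg minus LG_naive was −0.06 (95% interval −0.47 to 0.35, limma adjusted p = 0.918) and LG_eTconv minus LG_naive −0.12 (95% interval −0.53 to 0.29, limma adjusted p = 0.795). This dim probe set thus did not show the rises of the other probe sets. LG_eTreg minus LG_eTconv was 0.06 (95% interval −0.35 to 0.47, limma adjusted p = 0.945). Which part of the transcript each probe set reads was not analysed here.

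**Figure D1:**
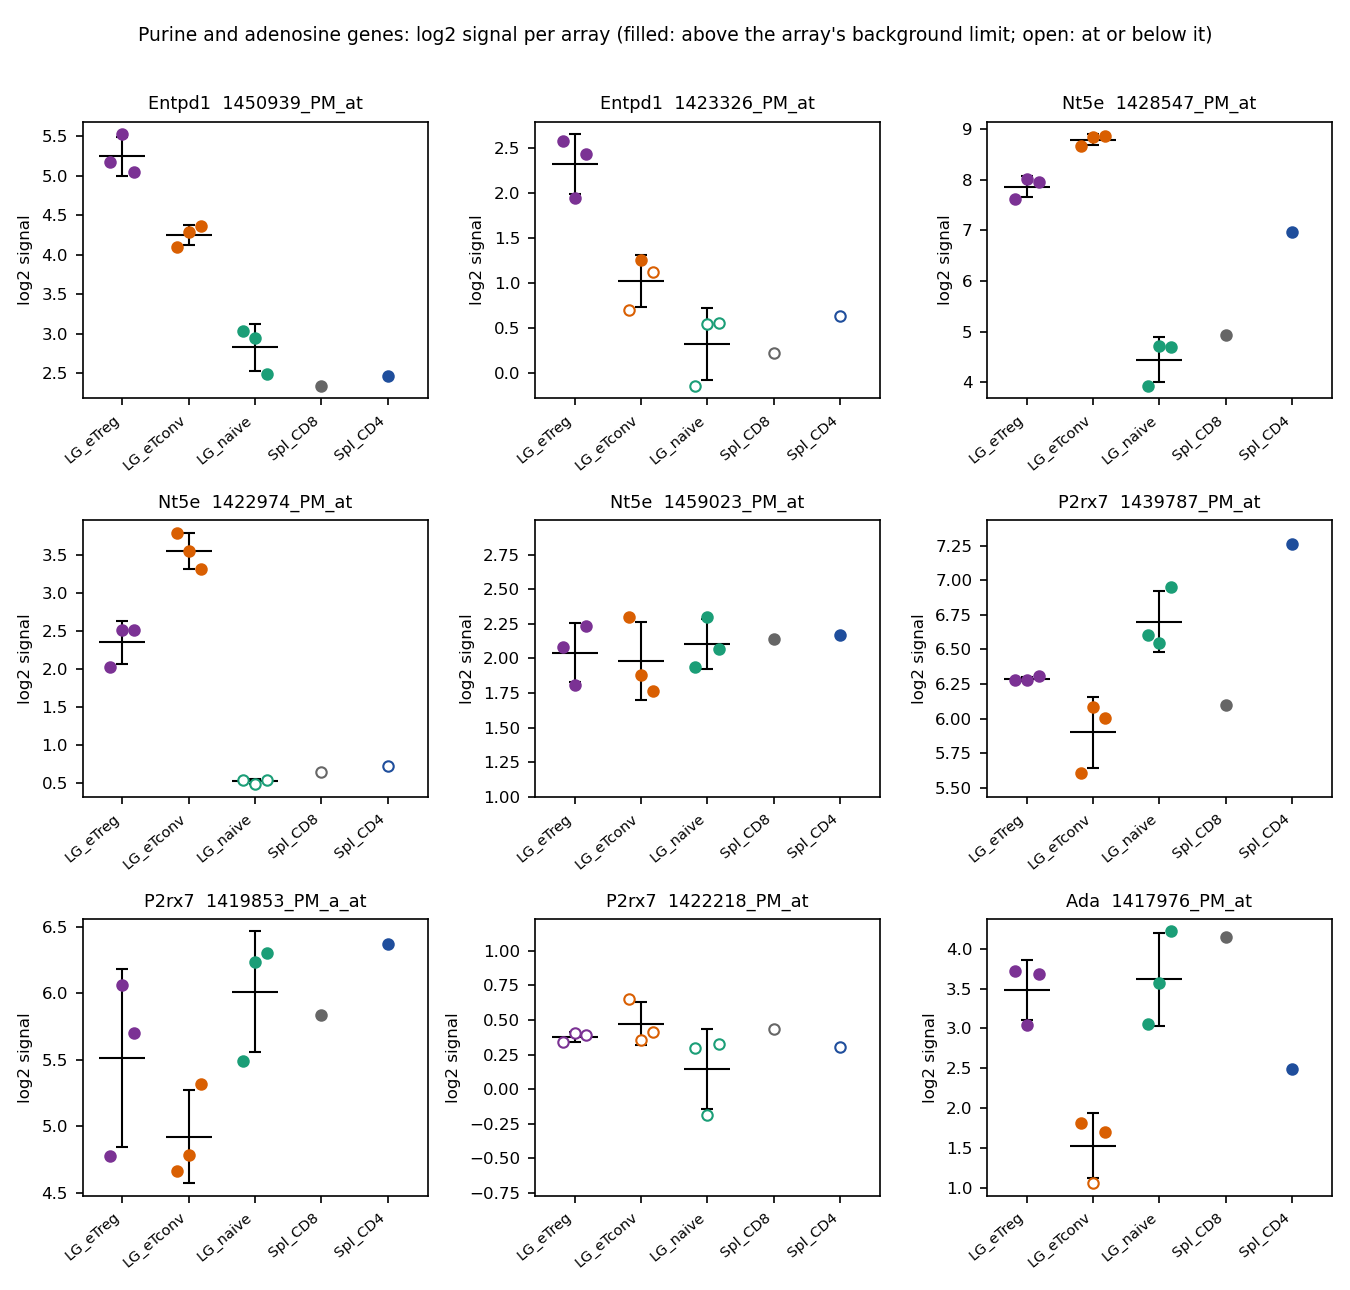
Log2 signal (vertical axes) of each of the 9 probe sets on every array, by group: LG_eTreg, LG_eTconv, LG_naive, Spl_CD8 and Spl_CD4. Points are arrays, filled where above the background limit, and bars are the mean ± SD of 3 gland arrays. Entpd1 steps down over LG_eTreg, LG_eTconv and LG_naive, 2 of the 3 Nt5e probe sets are highest in LG_eTconv, and Ada is lowest in LG_eTconv.

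P2rx7 spans chr5:122643927-122692336 and encodes the ATP-gated channel, the receptor side of the path. Its brightest probe set, 1439787_PM_at, read 6.28, 6.28 and 6.31 on the LG_eTreg arrays, 5.61, 6.08 and 6.01 on the LG_eTconv arrays and 6.60, 6.54 and 6.95 on the LG_naive arrays. Spl_CD8 read 6.10 and Spl_CD4 7.26, the highest of all 11 arrays. The 3 gland groups did not overlap, with LG_naive highest and LG_eTconv lowest, though only LG_eTconv minus LG_naive was called.

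P2rx7 was lower in LG_eTconv than in LG_naive by 0.80 on the log2 scale (SE 0.16, 1.74-fold, limma adjusted p = 0.0156), while LG_eTreg minus LG_naive was −0.41 (limma adjusted p = 0.198) and LG_eTreg minus LG_eTconv was 0.39 (limma adjusted p = 0.320). As the mean over the 3 P2rx7 probe sets, LG_eTconv minus LG_naive was −0.52 (limma adjusted p = 0.0625). A second probe set, 1419853_PM_a_at, read 4.77, 6.07 and 5.70 on the LG_eTreg arrays, 4.67, 4.78 and 5.32 on the LG_eTconv arrays and 5.49, 6.24 and 6.31 on the LG_naive arrays, with 5.84 in Spl_CD8 and 6.37 in Spl_CD4. Its LG_eTconv and LG_naive groups did not overlap either, but its arrays spread more widely within groups: LG_eTconv minus LG_naive was −1.09 (SE 0.36, limma adjusted p = 0.123), LG_eTreg minus LG_naive −0.50 (limma adjusted p = 0.564) and LG_eTreg minus LG_eTconv 0.59 (limma adjusted p = 0.585). The third, 1422218_PM_at, designed from a RefSeq transcript, read −0.19 to 0.65 and was below the limit on all 11 arrays, so no fold is given.

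Ada spans chr2:163726571-163750239 and encodes adenosine deaminase, which removes adenosine. Its only probe set, 1417976_PM_at, read 3.72, 3.04 and 3.68 on the LG_eTreg arrays, 1.82, 1.06 and 1.70 on the LG_eTconv arrays and 3.06, 3.57 and 4.22 on the LG_naive arrays, with 4.15 in Spl_CD8 and 2.49 in Spl_CD4. LG_eTconv stood apart below every other array, with 2 of its 3 arrays above the limit, while LG_eTreg and LG_naive overlapped. The means were 3.48 ± 0.38 in LG_eTreg, 1.53 ± 0.41 in LG_eTconv and 3.62 ± 0.58 in LG_naive (SD, n = 3 each).

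Ada was lower in LG_eTconv than in LG_naive by 2.09 on the log2 scale (SE 0.33, 4.26-fold, limma adjusted p = 0.00582), a call that all 19 alternative settings kept. With the highest limit as floor, LG_eTconv was 3.67-fold below LG_naive (limma adjusted p = 0.00421). It was then 3.34-fold below LG_eTreg (limma adjusted p = 0.0131). LG_eTreg minus LG_naive was −0.14 (95% interval −0.91 to 0.63, limma adjusted p = 0.903). Between the effector subsets Ada was higher in LG_eTreg by 1.95 (SE 0.33, 3.87-fold, limma adjusted p = 0.0180), and 196 probe sets rose further. This call ended without LG_eTreg 1 (limma adjusted p = 0.0626), LG_eTreg 3 (0.0617), LG_eTconv 2 (0.0657) or LG_eTconv 3 (0.0530), with differences of 1.83, 1.85, 1.72 and 2.04 in the same order.

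**Figure D2:**
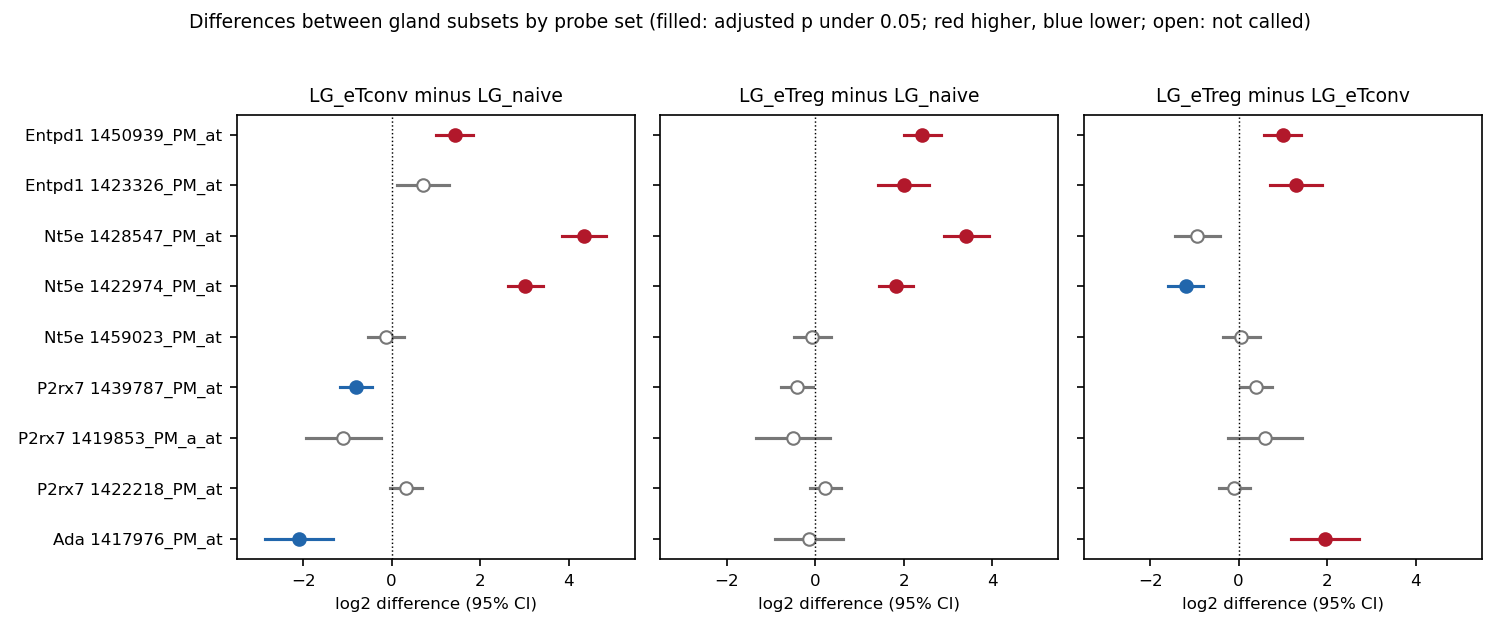
Log2 differences (horizontal axes) of the 9 probe sets in 3 comparisons between gland subsets, 1 panel each, from limma over 9 gland arrays. Points are estimates, filled where called (red higher, blue lower), and bars are 95% intervals. Entpd1 lies to the right of 0 between the effector subsets by 1.0 and 1.29, as does Ada by 1.95, while 2 Nt5e probe sets lie to the left by 0.93 and 1.20.

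Counted over the 9 probe sets, LG_eTreg against LG_naive had 4 called higher, 2 each of Entpd1 and Nt5e, and 0 called lower by limma (5 had an unadjusted p under 0.05), where 4.09% of all probe sets were called higher and 3.51% lower. LG_eTconv against LG_naive had 3 called higher, 1 of Entpd1 and 2 of Nt5e, and 2 called lower, 1 each of P2rx7 and Ada. There 4.55% of all probe sets were called higher and 4.57% lower. LG_eTreg against LG_eTconv had 3 called higher, 2 of Entpd1 and 1 of Ada, and 1 of Nt5e called lower, where 1.75% of all probe sets were called higher and 1.71% lower. Probe sets of a gene are not independent, and Nt5e was part of the sort gate, so its calls are not a finding. The genes were chosen with earlier results of these data known, so the counts beside these shares are a description. Without single arrays the count between the effector subsets was between 1 and 5: it was 1 without LG_eTreg 1, LG_eTconv 2 or LG_eTconv 3, and 2 without LG_eTreg 3 or LG_eTconv 1.

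Set against total spleen CD4 T cells, where 1 array allows no test, Entpd1 (1450939_PM_at) was higher by 2.79 in LG_eTreg, 1.79 in LG_eTconv and 0.36 in LG_naive on the log2 scale, and −0.12 apart in Spl_CD8. Nt5e (1428547_PM_at) differed by 0.90 in LG_eTreg, 1.83 in LG_eTconv, −2.52 in LG_naive and −2.03 in Spl_CD8. P2rx7 (1439787_PM_at) was lower in each: −0.97 in LG_eTreg, −1.36 in LG_eTconv, −0.56 in LG_naive and −1.16 in Spl_CD8. Ada differed by 0.99 in LG_eTreg, −0.96 in LG_eTconv, 1.13 in LG_naive and 1.66 in Spl_CD8. The spleen arrays held more B cell signal than the gland arrays: the mean over 7 B cell markers was 1.67 to 2.13 on LG_eTreg arrays, 2.69 to 3.07 on LG_eTconv arrays, 2.78 to 3.03 on LG_naive arrays, 6.15 in Spl_CD8 and 5.41 in Spl_CD4, and its part in these differences was not tested. LG_naive lay on the opposite side of Spl_CD4 from the effector subsets for Nt5e, and LG_eTconv on the opposite side from all others for Ada.

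**Figure D3:**
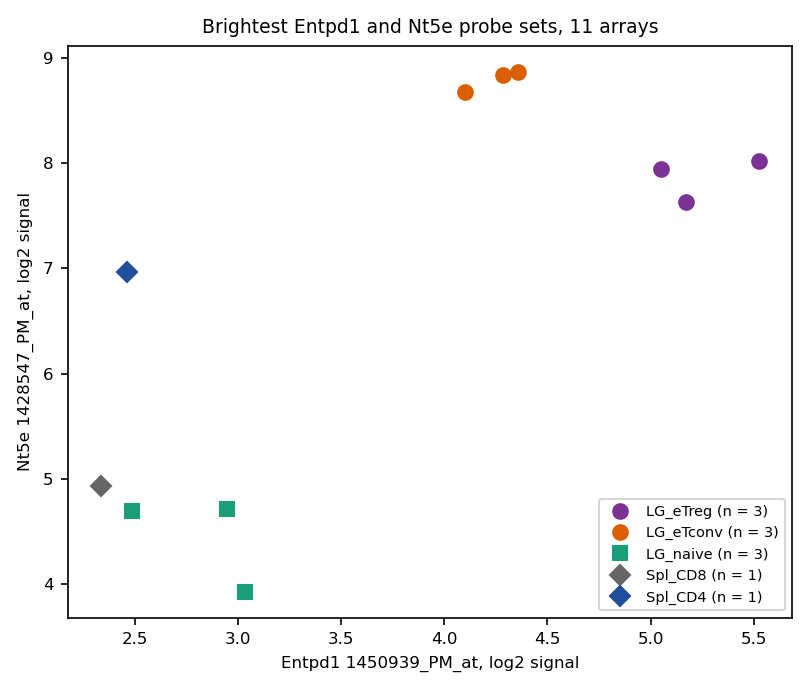
Log2 signal of Entpd1 (1450939_PM_at, horizontal axis) against Nt5e (1428547_PM_at, vertical axis) on all 11 arrays. Each point is 1 array, and the gland groups form 3 separate clusters: LG_eTreg has the highest Entpd1 (5.05 to 5.53), LG_eTconv the highest Nt5e (8.68 to 8.87), and LG_naive is low in both.

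The genes with the most similar pattern over the 11 arrays were named from Pearson's r, which is a description because the points share arrays and groups. For Entpd1 they were Il1r2, a decoy receptor for interleukin 1 (r = 0.983), Il10, an anti-inflammatory cytokine (0.982), and Fam110c (0.971). Il10 averaged 8.98 in LG_eTreg, 5.25 in LG_eTconv and 1.49 in LG_naive. For Nt5e they were Raph1 (0.996), Cd200, a gene of the sort gate (0.986), and Crbn (0.985). Raph1, an actin regulator also called lamellipodin, averaged 6.47 in LG_eTreg, 7.15 in LG_eTconv and 3.70 in LG_naive. For P2rx7 the values were lower, with Gata1 at 0.913, Gpn3 at 0.907 and Slc22a23 at 0.891. For Ada they were Plcxd2 at 0.902, Runx3, a transcription factor of CD8 and T helper 1 cells, at 0.900 and Ptp4a3 at 0.889. Runx3 averaged 6.54 in LG_eTreg, 5.37 in LG_eTconv and 6.58 in LG_naive and, like Ada, was lowest in LG_eTconv.

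Other genes of purine handling were taken from a list of 83, of which 68 had a probe set, 12 of them at or below the limit on all gland arrays. Each was read by its brightest probe set. In LG_eTreg against LG_naive 1 was called higher and 9 lower (median difference −0.09), where 5.4% of all genes were called higher and 4.73% lower. In LG_eTconv against LG_naive 1 was called higher and 10 lower (median −0.14), where 5.87% of all genes were called higher and 6.2% lower. In LG_eTreg against LG_eTconv 3 were called higher and 1 lower (median 0.01), where 2.55% of all genes were called higher and 2.34% lower. Over all genes the medians were −0.02, −0.03 and 0.01 in the same order. The 11 calls in LG_eTconv against LG_naive became 7 without LG_naive 1 or without LG_naive 3.

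Among 10 other ectonucleotidases and related surface enzymes, 2 were called lower in LG_eTreg and 4 in LG_eTconv against LG_naive by limma, and 0 higher in either (0 also at an unadjusted p under 0.05). Over all genes, 4.73% were called lower in LG_eTreg and 6.2% in LG_eTconv, and 5.4% and 5.87% were called higher. Dpp4 encodes CD26, the surface protein that holds adenosine deaminase on human T cells. It averaged 6.79 ± 0.26 in LG_eTreg, 6.18 ± 0.20 in LG_eTconv and 8.37 ± 0.06 in LG_naive (SD, n = 3 each), and fell by 1.58 in LG_eTreg (limma adjusted p = 0.000512) and by 2.19 in LG_eTconv (limma adjusted p = 7.94e-05). The other Dpp4 probe set was called lower in LG_eTconv but was not called in LG_eTreg. Acpp, a phosphatase that can make adenosine from AMP, averaged 6.36 ± 0.04 in LG_eTreg, 5.69 ± 0.09 in LG_eTconv and 6.83 ± 0.14 in LG_naive. It was lower in LG_eTconv than in LG_naive by 1.15 (limma adjusted p = 0.000274) and higher in LG_eTreg than in LG_eTconv by 0.67 (limma adjusted p = 0.0104), while its other probe set was not called. Its smaller fall in LG_eTreg, −0.47 (limma adjusted p = 0.0280), ended as a call without LG_eTreg 1 (0.0879), LG_eTreg 2 (0.0783), LG_eTreg 3 (0.0617), LG_eTconv 3 (0.0511), LG_naive 1 (0.0587) or LG_naive 2 (0.0855).

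Entpd5, an enzyme related to CD39 that acts in the endoplasmic reticulum, averaged 5.72 ± 0.61 in LG_eTconv against 7.41 ± 0.03 in LG_naive (−1.69, limma adjusted p = 0.0271). The call ended without LG_eTconv 2 (0.0983), LG_eTconv 3 (0.0926), LG_naive 1 (0.0716), LG_naive 2 (0.0760) or LG_naive 3 (0.0827). Of 5 other Entpd5 probe sets, 3 were called the same way. Entpd7 was not called by its brightest probe set, at 0.42 in LG_eTreg (limma adjusted p = 0.440) and 0.57 in LG_eTconv (limma adjusted p = 0.246), but 1 of its 3 other probe sets was called higher in each.

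Adora3, the only other adenosine receptor with a probe set here, lay at or below the limit on all gland arrays. Of 13 other ATP and nucleotide receptors, 7 lay there too, and 0 were called higher in any comparison by limma (0 also at an unadjusted p under 0.05). Over all genes, 2.55% to 5.87% were called higher, depending on the comparison. P2ry14, a receptor for UDP-sugars, averaged 4.82 ± 0.55 in LG_naive and was below the limit on every effector array. It was at least 12.1-fold lower in LG_eTreg and at least 11.2-fold lower in LG_eTconv, each against the limits of the effector arrays, and 8.71-fold lower in each with the highest limit as floor. For the signals as read, the limma adjusted p was 0.000153 and 0.000181 in the same order. Spl_CD8 (−0.26) and Spl_CD4 (0.66) were below the limit as well, so P2ry14 was above the limit on the 3 LG_naive arrays and on no other, beside the higher myeloid and dendritic markers of LG_naive given above. P2ry6, a UDP receptor, was at least 2.20-fold lower in LG_eTreg than in LG_naive against the limits of the LG_eTreg arrays (limma adjusted p = 0.0260 for the signals as read). With the highest limit as floor it was 1.58-fold lower (limma adjusted p = 0.194), and the call also ended without LG_eTreg 1 (0.0818), LG_eTreg 2 (0.0805) or LG_eTreg 3 (0.0527).

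Of 8 genes of nucleoside transport and nucleotide release, 2 were called. Over all genes, 5.87% were called higher in LG_eTconv than in LG_naive. Between LG_eTreg and LG_eTconv, 2.55% were called higher and 2.34% lower. Slc29a1, the equilibrative transporter that carries adenosine across the membrane, averaged 1.38 ± 0.16 in LG_eTreg, 2.23 ± 0.05 in LG_eTconv and 1.51 ± 0.14 in LG_naive (SD, n = 3 each), close to the background limit. It was higher in LG_eTconv than in LG_naive by 0.72 (limma adjusted p = 0.00624) and lower in LG_eTreg than in LG_eTconv by 0.85 (limma adjusted p = 0.00667), so it was highest in the subset where Ada was lowest. Panx1, a channel that releases ATP, averaged 6.41 ± 0.30 in LG_eTreg and 5.24 ± 0.34 in LG_eTconv (1.16, limma adjusted p = 0.0302). That call ended without LG_eTreg 2 (0.106), LG_eTreg 3 (0.0933), LG_eTconv 1 (0.106), LG_eTconv 2 (0.109) or LG_naive 3 (0.0501).

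Inside the cell, 1 of 14 genes of purine salvage and breakdown was called by its brightest probe set, and it was higher in LG_eTreg. Over all genes, 5.4% were called higher in LG_eTreg than in LG_naive and 2.55% higher than in LG_eTconv. Dck, the kinase that traps deoxynucleosides such as deoxyadenosine, averaged 5.25 ± 0.40 in LG_eTreg, 3.45 ± 0.19 in LG_eTconv and 4.11 ± 0.09 in LG_naive (SD, n = 3 each). It rose in LG_eTreg by 1.14 over LG_naive (limma adjusted p = 0.0103) and by 1.80 over LG_eTconv (limma adjusted p = 0.00209), and no single omitted array ended either call. Ada and Dck act on the same nucleoside, deoxyadenosine, and both were higher in LG_eTreg than in LG_eTconv. Adk was not called by its brightest probe set, at −0.05 in LG_eTreg (limma adjusted p = 0.924) and −0.02 in LG_eTconv (limma adjusted p = 0.971) against LG_naive. Of its 3 other probe sets, 1 was called lower in each.

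Of 11 genes of purine synthesis, Gart, Adsl and Impdh1 were called lower in both effector subsets against LG_naive. Over all genes, 4.73% were called lower in LG_eTreg and 6.2% in LG_eTconv. Impdh1, which commits purines to guanine nucleotides, averaged 4.46 ± 0.25 in LG_eTreg, 4.12 ± 0.08 in LG_eTconv and 5.32 ± 0.08 in LG_naive (SD, n = 3 each). It fell by 0.86 in LG_eTreg (limma adjusted p = 0.00645) and by 1.20 in LG_eTconv (limma adjusted p = 0.000954). Gart differed by −1.10 in LG_eTreg (limma adjusted p = 0.0263) and −0.99 in LG_eTconv (limma adjusted p = 0.0366), with its 3 other probe sets not called, and Adsl by −0.69 (limma adjusted p = 0.0466) and −0.66 (limma adjusted p = 0.0499) in the same order. The Gart call in LG_eTreg ended without LG_eTreg 1, LG_eTreg 2 or any 1 LG_naive array (limma adjusted p 0.0567 to 0.0892), and that in LG_eTconv without any of these or without LG_eTconv 1 or LG_eTconv 2 (0.0538 to 0.125). The Adsl call in LG_eTreg held without LG_eTreg 3 and ended without any other single array (limma adjusted p 0.0606 to 0.142), and that in LG_eTconv held without LG_eTreg 1 or LG_eTreg 3 and ended without any other (0.0776 to 0.149).

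The cyclic AMP path lies downstream of the A2A receptor. Of its 11 listed genes, 2 were called, both phosphodiesterases, which break down cyclic AMP, and both lower in the effector subsets than in LG_naive. The share of all genes called lower was 4.73% in LG_eTreg and 6.2% in LG_eTconv. Pde3b averaged 4.58 ± 0.81 in LG_eTreg, 3.76 ± 0.40 in LG_eTconv and 8.66 ± 0.20 in LG_naive (SD, n = 3 each), with 8.72 in Spl_CD8 and 7.97 in Spl_CD4. The effector arrays thus stood apart from both LG_naive and spleen, with differences from LG_naive of −4.08 in LG_eTreg (limma adjusted p = 0.000408) and −4.90 in LG_eTconv (limma adjusted p = 0.000135). Pde4b fell by 0.79 in LG_eTreg (limma adjusted p = 0.000856) and by 0.76 in LG_eTconv (limma adjusted p = 0.000879).

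**Figure D4:**
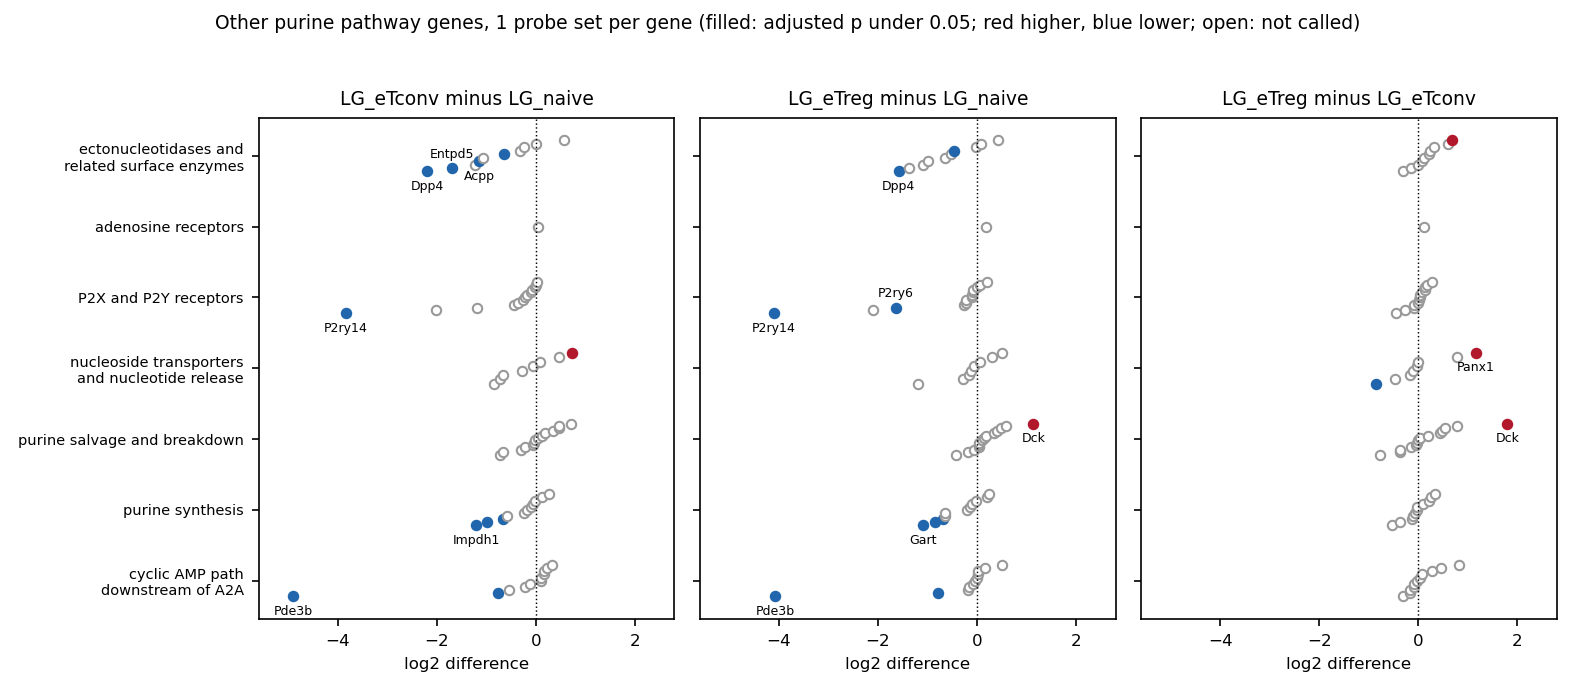
Log2 differences (horizontal axes) of the 68 other purine genes, 1 point per gene, by function (rows) in 3 comparisons, with filled points called by limma at an adjusted p under 0.05 (red higher, blue lower). Pde3b (−4.08 in LG_eTreg and −4.90 in LG_eTconv) and P2ry14 lie farthest left against LG_naive, and Dck (1.80) farthest right between the effector subsets.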

How the data were processed

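The authors deposited log2 signals. The submitters' processing notes name RMA and Partek; versions are not given in the sources used here, and log base 2 is inferred from RMA. Per the labels' protocols, amplification used NuGEN Ovation kits and the label was biotin. The table held 45141 probe sets; 104 controls were left out, and of the other 45037, 28898 had 1 gene symbol, 551 several and 15588 none listed. The number of arrays limits the precision.

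Group means over the 9 gland arrays were fitted with limma 3.58.1 in R 4.3.3 (6 residual degrees of freedom, empirical Bayes), with two-sided tests and Benjamini-Hochberg adjustment over all 45037 probe sets, and the code was checked on simulated data. Tables were made with Python 3.11.15 and pandas 2.3.3. Spleen arrays entered no test. Where no array of a group exceeded its limit, a difference is given as at least N-fold, the brighter mean against the dim group's mean of the higher of limit and signal. The bound itself was not tested, and the p-value given with it is that of the signals as read. Other purine genes were read by the probe set with the highest gland mean, and the text names up to 3 called genes with the largest difference per function and comparison, plus called enzymes, receptors and transporters with a difference of at least 1. The most similar genes are the 3 with the highest r among genes with an SD over arrays of at least 0.5, leaving out clone names. Members and lists were chosen with earlier results of these data known. Alternatives covered the choice of probe set, low values, scaling, variance model, array weights, a replicate block and arrays left out.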

Additional observations from a re-analysis of the deposited data

How the results depend on the processing

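Of 477 recomputed member differences, 439 kept their direction and their side of the threshold under the alternatives run, 24 lost the call, 8 gained it and 6 changed sign. The 6 are differences near 0 with single arrays left out: Ada in LG_eTreg minus LG_naive, −0.41 to 0.17, and Nt5e probe set 1459023_PM_at in LG_eTreg minus LG_naive, −0.16 to 0.053, and in LG_eTreg minus LG_eTconv, −0.048 to 0.22. Of 475 recomputed differences of other purine genes, 393 kept the call and 82 lost it. Of 153 spleen differences without a test, 145 moved by less than the spread between replicates and 8 by more.

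Calls are given in the order LG_eTreg minus LG_eTconv, LG_eTreg minus LG_naive and LG_eTconv minus LG_naive. With 1 probe set per gene there were 974, 1995 and 2303, with 2 for the members in LG_eTreg minus LG_naive. With the mean over a gene's probe sets there were 1023, 2078 and 2372. The members then had 2 in LG_eTreg minus LG_naive and 3 in LG_eTconv minus LG_naive, where the P2rx7 call was lost (limma adjusted p = 0.0625). Both settings hold 1 row per gene, so these counts are of genes and not of probe sets. With LG_naive 1, LG_eTconv 1 and LG_eTreg 3 left out together, LG_eTreg minus LG_eTconv had 913 calls by limma, 0 of the 9 member probe sets (5 had an unadjusted p under 0.05) and 1 other purine gene, and LG_eTreg minus LG_naive had 4 other purine genes; the Nt5e call of 1422974_PM_at (0.0662) and the P2rx7 call in LG_eTconv (0.0763) were also lost. Leaving out single arrays gave 965 to 1549 calls and 1 to 5 member calls in LG_eTreg minus LG_eTconv, and 7 to 12 calls of other purine genes in LG_eTconv minus LG_naive. LG_eTreg minus LG_eTconv for Entpd1 1450939_PM_at was also lost with a trended variance (0.0526), and Nt5e 1428547_PM_at passed there with 1 probe set per gene (0.0462), the gene mean (0.0199), a trended variance (0.0465), 6 arrays (0.0292) and array weights (0.0316).

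The labels do not say that a replicate number marks the same mice. Deviations of same-numbered arrays correlated at −0.11 to 0.16. Differently numbered arrays were not set beside them, so whether same-numbered arrays share mice or a sort cannot be told here. With the replicate block there were 1327, 3246 and 3918 calls, 4, 4 and 6 of them members and 4, 10 and 10 other purine genes. Under the block Nt5e 1428547_PM_at passed in LG_eTreg minus LG_eTconv (0.0310), P2rx7 1419853_PM_a_at passed in LG_eTconv minus LG_naive (0.0338), and Entpd1 1423326_PM_at was lost in LG_eTreg minus LG_eTconv (0.0646). The causes of these changes were not tested.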
